A study of Mus musculus with 6 samples.

Results

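The hypoxia response and glycolysis genes are 42 genes, chosen by symbol, out of 24348 in the table of counts. They code for hypoxia-inducible factors (HIFs), the enzymes that sense oxygen for them, a set of well known HIF targets, and the enzymes that turn glucose into pyruvate and lactate. RNA was measured by total RNA sequencing in flow-sorted fibroblasts of the synovium, the membrane that lines joints, from wild-type C57BL/6 mice. In the study as a whole the question was how the synovium responds to immune complexes (IC), antibodies bound to their antigen, that circulate in blood. Of the 6 libraries, 3 came from mice given IC into a vein, which the study's methods describe as ovalbumin with rabbit antibodies against it, and 3 from mice given vehicle, labelled control. Both groups had the same genotype and differed in the labels by treatment alone. The study's methods state for all its experiments that both sexes and, unless otherwise mentioned, adult mice were used. The labels give no age or sex for these libraries and no time between injection and sorting, and do not say whether a library came from 1 mouse or from several, so p-values measure the spread between these libraries.

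HIFs are pairs of an alpha subunit and the partner Arnt. In normal oxygen, prolyl hydroxylases mark the alpha subunits and the von Hippel-Lindau protein directs them to degradation, so HIF activity is set mainly at the level of protein. When oxygen is low the alpha subunits persist and raise the transcription of genes for glucose uptake, glycolysis, vessel growth and survival. Glycolysis also serves proliferating and activated cells with oxygen at hand, and inflamed synovium is a tissue in which both low oxygen and glucose use by fibroblasts have drawn interest. The messenger RNA of HIF targets is a common readout of the pathway, and the proteins, lactate and oxygen were not measured here.

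All 42 genes were in the table. A gene was tested when it had at least 10 counts in at least 3 libraries, which 41 of the 42 met. Car9, the cell surface carbonic anhydrase that is widely used as a marker of low oxygen, did not. It had 0, 4 and 5 counts in the 3 IC libraries and 6, 0 and 2 in the 3 vehicle libraries, of totals of 40114331 to 56714304 counts, so no difference could be detected at this depth. DESeq2 gave 40 of the 41 tested genes an adjusted p. The other was Aldoc, the brain form of aldolase, at 0 to 39 normalized counts. Normalized counts are counts divided by the size factor of the library, and log2 fold changes are IC against vehicle, positive where IC was higher.

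Markers of the labelled cell type were abundant. All 10 fibroblast markers listed were measured, and together they made up 45370 to 47276 CPM after IC and 46399 to 56416 after vehicle, where CPM is a gene's share of all counts of the library, on the usual scale. Of these DESeq2 called Prg4, the lubricin gene of lining fibroblasts, higher (log2 fold change 0.94) and Col3a1 (−0.38) and Lum (−0.36) lower. By log2 fold change 8 of the 10 were lower after IC. Markers of other cells had far lower sums, and several differed between the groups. Chondrocyte and bone markers, most of whose counts were from Comp, summed to 747 to 851 CPM after IC and 461 to 705 after vehicle, without overlap, with 3 of 6 tested genes higher and 0 called. Muscle satellite cell markers summed to 22.4 to 60.9 CPM after IC and 88.3 to 158 after vehicle. Among them 7 of 7 tested genes were lower and 2 were called. Skeletal muscle markers summed to 44.3 to 75.3 and 64.2 to 135, with 14 of 15 lower and 4 called. Endothelial markers summed to 209 to 281 CPM after IC and 279 to 333 after vehicle, with 10 of 10 lower and 3 called. Of all tested genes 2.10% were called. In such sorted bulk samples, fewer cells of a type and less RNA per cell cannot be told apart, and the part of these cells in the results below was not tested.

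Few genes of the hypoxia and glycolysis program passed the test. DESeq2 called 3 of the 41 tested genes at a Benjamini-Hochberg adjusted p under 0.05 over all 19925 genes tested, against 2.10% of all tested genes. Hk2, the hexokinase that traps glucose in many activated and muscle cells, rose after IC. Stc1, a secreted hormone-like glycoprotein, and Car12, a cell surface carbonic anhydrase, fell. The share of all tested genes called was 1.03% higher and 1.07% lower. The members were chosen with earlier results of these data known, so these shares are a description only. The other 37 genes with an adjusted p had DESeq2 adjusted p values of 0.102 (Ndrg1) and above. The median log2 fold change was 0.03 over the 41 genes and −0.0019 over all tested genes, and 25 of the 41 were above 0, a share of 61.0% against 49.6% of all tested genes.

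**Figure D1:**
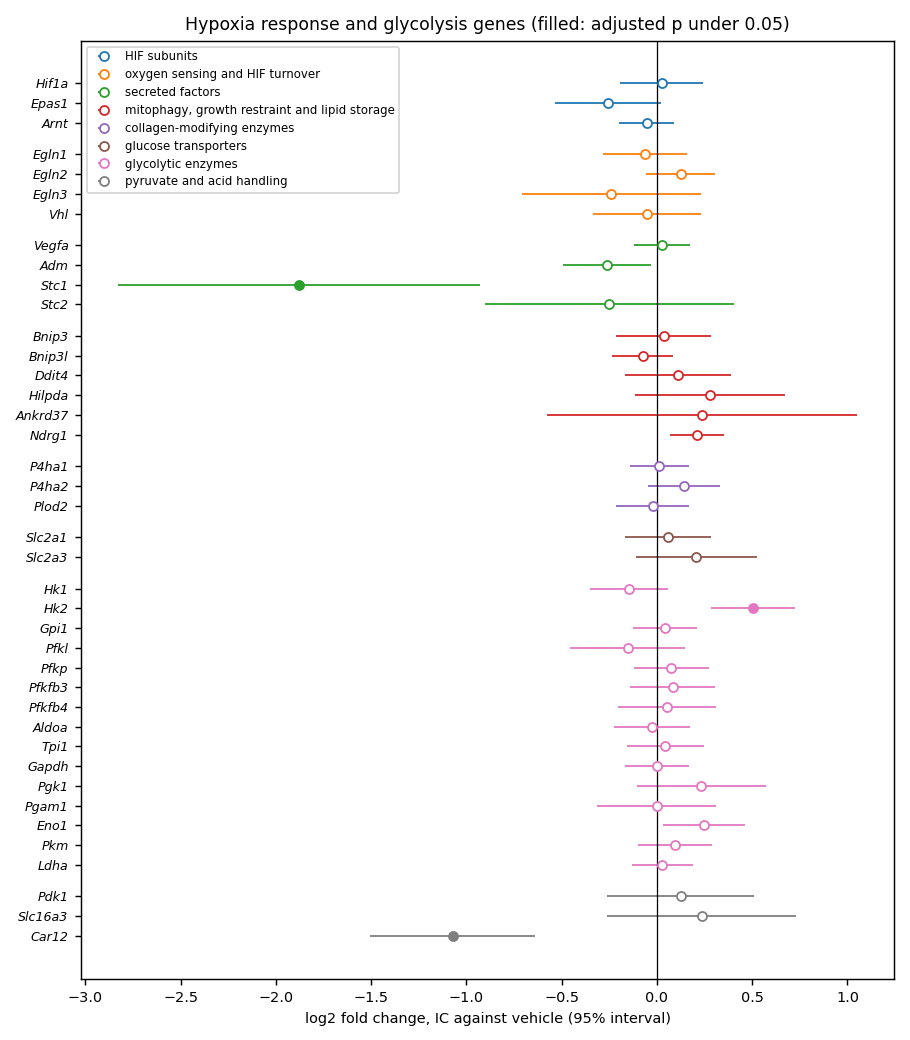
Log2 fold change of IC against vehicle (x axis) with its 95% interval for the 40 genes with an adjusted p, grouped by role and coloured by group; 3 libraries per group, filled points have an adjusted p under 0.05 by DESeq2. Most points lie close to 0, Hk2 lies to the right at 0.50, and Stc1 and Car12 lie to the left at −1.88 and −1.07.

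For most members the interval of the difference was narrow. The 95% interval of the log2 fold change lay wholly within 0.5 on either side of 0, a change of 1.41-fold, for 28 of the 41 genes (68.3%), against 41.1% of all tested genes. The 13 others were Epas1, Egln3, Stc1, Stc2, Hilpda, Ankrd37, Slc2a3, Hk2, Aldoc, Pgk1, Pdk1, Slc16a3 and Car12. For the members among these 13 that were not called, the interval reaches a change of that size. The shares of narrow intervals were not matched for count level, on which the width of an interval depends. The 3 IC values lay all above or all below the 3 vehicle values for 8 genes (19.5%), against 15.8% of all tested genes. They were Ndrg1, Hk2 and Eno1, higher after IC, against 8.09% of all tested genes, and Adm, Stc1, Stc2, Bnip3l and Car12, lower, against 7.67%. The split moved with the scaling. Under total-count scaling 9 genes did not overlap, 5 higher and 4 lower, against 15.7% of all tested genes, and under TMM scaling 9, 3 higher and 6 lower, against 15.8%.

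The calls depended on the test. The quasi-likelihood test of edgeR called 0 of the 41 genes, where it called 0.186% of all tested genes, while 6 of the 41 and 9.64% of all tested genes had an unadjusted p under 0.05 with it. By its own test limma-voom called Stc1 alone, where it called 0.311%. At an unadjusted p under 0.05 DESeq2 passed 6 of the 41 (14.6%), against 9.80% of all tested genes. They were Hk2, Ndrg1 and Eno1 above 0, against 4.91%, and Stc1, Car12 and Adm below, against 4.88%.

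In promoters and enhancers HIF binds the core letters ACGTG or GCGTG. The windows of 250 bases before the RefSeq start (GRCm38.p6, matched by symbol for 36 of the 42 genes) of 3 members are shown, those of Hk2 and Car12 because both genes were called, in opposite directions, and that of Ldha because this gene had the highest level. Stc1 had no entry in the table used. Capitals mark ACGTG or GCGTG on either strand, so that CACGT and CACGC are the same letters read from the other strand and CACGTG holds the motif on both. The Hk2 window (chr6:82774455-82774704, minus strand, printed 5′ to 3′ on that strand) held 2 matches, which begin 226 and 52 bases before the start. The Ldha window shown (chr7:46845554-46845803, plus strand) held 5. It is the richer of the 2 windows of this gene, and the other (chr7:46846832-46847081, plus strand), which is not shown, held 1 match to GCGTG and none to ACGTG. The Car12 window (chr9:66713436-66713685, plus strand) held 0.
Hk2: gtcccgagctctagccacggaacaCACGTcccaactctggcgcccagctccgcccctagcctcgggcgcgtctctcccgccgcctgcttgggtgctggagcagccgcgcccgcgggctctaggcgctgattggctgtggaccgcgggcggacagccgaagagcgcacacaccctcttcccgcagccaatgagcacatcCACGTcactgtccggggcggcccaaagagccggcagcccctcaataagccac
Ldha: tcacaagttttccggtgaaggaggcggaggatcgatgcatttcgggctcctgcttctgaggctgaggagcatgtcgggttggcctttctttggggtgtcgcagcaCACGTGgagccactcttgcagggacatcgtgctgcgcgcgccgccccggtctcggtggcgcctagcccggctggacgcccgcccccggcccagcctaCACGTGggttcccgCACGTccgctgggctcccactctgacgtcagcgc
Car12: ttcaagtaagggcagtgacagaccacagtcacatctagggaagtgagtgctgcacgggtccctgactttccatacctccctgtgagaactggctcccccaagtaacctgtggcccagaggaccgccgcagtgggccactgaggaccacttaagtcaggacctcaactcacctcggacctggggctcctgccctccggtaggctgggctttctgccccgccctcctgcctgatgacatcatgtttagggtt

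Of all 32851 promoter windows of this length, 16.6% held ACGTG and 38.6% held ACGTG or GCGTG. Among the 49 windows of the 36 members, some of which overlap where a gene has several starts, 23 (46.9%) held ACGTG and 39 (79.6%) either motif. Members with and without ACGTG were set side by side as a description. The 20 tested members with it had a median log2 fold change of 0.07, with 16 above 0 and 4 below and with Hk2 called. The 15 tested members without it had a median of −0.05, with 7 above 0 and 8 below and with Car12 called. The split left out GCGTG, which all of these 15 held except Car12, Gpi1, Tpi1 and Vhl. No such split was made over all tested genes, and whether the motif goes with the change was not tested. Matched letters do not show that HIF binds there.

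The HIF subunits gave no call. Hif1a, the alpha subunit found in most cells, had 4525, 4470 and 5903 normalized counts after IC and 4877, 5054 and 4712 after vehicle. Of these 6 libraries IC replicate 3 was the highest, and the groups overlapped. The log2 fold change was 0.03 with an interval from −0.19 to 0.24, and it was −0.12 without IC replicate 3. Epas1 codes for HIF-2 alpha, which is prominent in endothelium and some stromal cells. It had 2185, 1964 and 1419 after IC and 2176, 2285 and 2185 after vehicle, with IC replicate 3 the lowest. Its log2 fold change was −0.26 ± 0.142 (SE; DESeq2 adjusted p, 0.516). In IC replicate 3 Hif1a made up 78.0% of the summed level per length of Hif1a, Epas1 and Hif3a, against 64.5% and 66.6% in the other IC libraries and 65.2% to 66.3% in vehicle. Endothelial markers were also lowest in IC replicate 3, at 209 CPM. So were muscle satellite cell (22.4), skeletal muscle (44.3), mural cell (496), macrophage (33.4), Schwann cell (20.8) and adipocyte markers (1.61). Fibroblast, chondrocyte and bone, and red cell markers were not. The part of any of these cells in the counts of Epas1 was not tested. Arnt, the shared partner, had a log2 fold change of −0.05.

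Among the oxygen-sensing genes Egln2, 1 of the 3 prolyl hydroxylases listed, had the smallest p. It had 2938, 3085 and 3129 normalized counts after IC and 2704, 2718 and 2978 after vehicle, so the groups overlapped by the highest vehicle library. The log2 fold change was 0.12 (DESeq2 adjusted p, 0.713). Egln3, itself a strong HIF target in many cells, had −0.24 with an interval from −0.71 to 0.23. Egln1 and Vhl, which codes for the von Hippel-Lindau protein, had −0.06 and −0.05.

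The secreted factors held the gene with the largest fold change of the 41. Stc1 (chromosome 14, 69029238 to 69041804, GRCm38, plus strand) is a stanniocalcin, a glycoprotein with roles in calcium and phosphate handling that many cells release under low oxygen. It had 407.7, 155 and 391.6 normalized counts after IC and 858, 1570 and 1079 after vehicle. All 3 IC libraries lay below all 3 vehicle libraries, with IC replicate 2 the lowest and vehicle replicate 2 the highest. The means were 318 ± 141 and 1169 ± 364 (SD, n = 3 each), a fold of 0.272 with a 95% interval from 0.141 to 0.526, and the log2 fold change was −1.88 ± 0.485 (SE). DESeq2 put its adjusted p at 0.00790, edgeR at 0.0537 and limma-voom at 0.0416. The call was lost without vehicle replicate 2, where the log2 fold change was −1.60 and the DESeq2 adjusted p 0.130, and without vehicle replicate 3, where they were −1.93 and 0.0802. With 1 surrogate variable as a term the DESeq2 adjusted p was 0.0671. That variable was 0.908 in vehicle replicate 2 and −0.262 to −0.129 in the other libraries. It thus mainly marked vehicle replicate 2 and is not a check separate from leaving that library out.

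Vegfa, the main growth factor of blood vessels and among the best known HIF targets, had 11284, 10621 and 11695 normalized counts after IC and 10816, 10714 and 11439 after vehicle. The groups overlapped over nearly their whole range. The log2 fold change of Vegfa was 0.03, with an interval from −0.12 to 0.18. Adm codes for adrenomedullin, a peptide that dilates vessels. It had 1836, 1623 and 1953 after IC and 1958, 2186 and 2350 after vehicle, so every IC library was below every vehicle library, the nearest pair by a few counts. Its log2 fold change of −0.26 ± 0.117 (SE) had an adjusted p of 0.308 by DESeq2. Stc2, the second stanniocalcin, had 108, 83 and 98 after IC and 109, 111 and 123 after vehicle, with a log2 fold change of −0.25 (DESeq2 adjusted p, 0.897). Per length, Stc1 made up 69.8% to 83.2% of the 2 stanniocalcins after IC and 90.7% to 94.6% after vehicle.

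**Figure D2:**
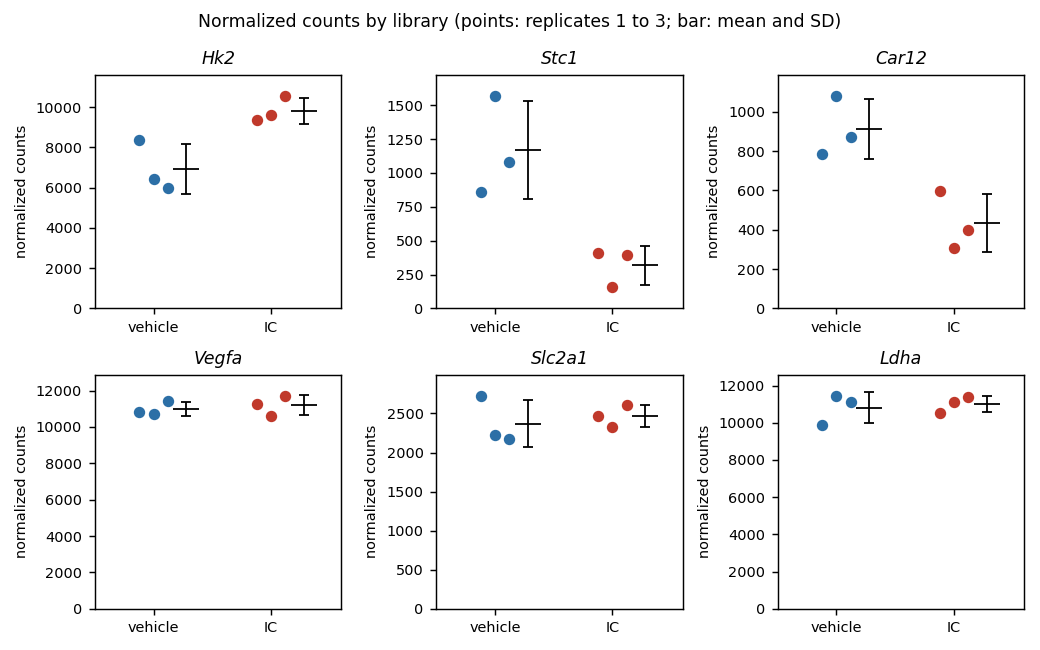
Normalized counts (y axis, from 0) of the 3 called genes in the upper row and of Vegfa, Slc2a1 and Ldha in the lower row, by library, with the mean and SD of each group of 3 beside the points. The groups lie apart for Hk2, Stc1 and Car12 and overlap for the 3 genes below them.

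The glycolytic enzymes were the largest group, with 16 tested genes. Of these 1 was called, against 2.10% of all tested genes. A log2 fold change above 0 was found for 11 and below 0 for 5, where 49.6% of all tested genes were above 0. The median of the 16 was 0.04. Hk2 (chromosome 6, 82725025 to 82774454, GRCm38, minus strand) codes for hexokinase 2, which phosphorylates glucose as the first step of glycolysis and binds mitochondria. It had 9341, 9594 and 10565 normalized counts after IC and 8345, 6438 and 6009 after vehicle. The lowest IC library lay above vehicle replicate 1, which was itself well above the other 2 vehicle libraries. The means were 9833 ± 646 and 6931 ± 1244 (SD, n = 3 each), a fold of 1.42 with a 95% interval from 1.22 to 1.65. The log2 fold change was 0.50 ± 0.113 (SE). Its adjusted p was 0.00107 in DESeq2, 0.121 in edgeR and 0.0827 in limma-voom. Without vehicle replicate 3 the log2 fold change was 0.41 and the DESeq2 adjusted p 0.0644, and Hk2 was called in the other 5 fits that each left out 1 library. Hk2 is also the main hexokinase of muscle. Of the tested markers, 14 of 15 of skeletal muscle and 7 of 7 of muscle satellite cells were lower after IC, where Hk2 was higher. The part of muscle RNA in the counts of Hk2 was not tested.

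The shift in hexokinase showed in the shares of the isoenzymes per length. Hk2 made up 80.5% to 81.1% of the 3 hexokinases measured after IC and 69.8% to 78.5% after vehicle. Hk1, the constitutive form, made up 18.1% to 18.7% and 20.3% to 29.4%, and its own log2 fold change of −0.15 had an interval from −0.35 to 0.06. Hk3 was near 1% in every library.

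None of the other steps of glycolysis gave a call. Eno1, which codes for enolase, had 3585, 3792 and 4101 normalized counts after IC and 2760, 3550 and 3360 after vehicle. Its groups did not overlap, the log2 fold change was 0.25 ± 0.110 (SE) and the adjusted p 0.308 by DESeq2. Pgk1, phosphoglycerate kinase and a classical HIF target, had 1019, 1040 and 1504 after IC and 854, 1171 and 1009 after vehicle. Here IC replicate 3 stood above the other 5 libraries, and the log2 fold change of 0.23 was 0.03 at the lowest when 1 library was left out.

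Gapdh, the dehydrogenase often used as a reference gene, had 6769, 6691 and 7585 normalized counts after IC and 6930, 7398 and 6717 after vehicle. The interval of its log2 fold change ran from −0.17 to 0.17. Ldha, which turns pyruvate into lactate and is the enzyme that closes anaerobic glycolysis, had 10543, 11119 and 11388 after IC and 9872, 11434 and 11111 after vehicle, and its interval ran from −0.13 to 0.19. For both genes the groups overlapped and the interval lay within a change of 1.41-fold. The log2 fold changes of the remaining enzymes were −0.15 for Pfkl, 0.07 for Pfkp, 0.08 for Pfkfb3, 0.05 for Pfkfb4, −0.03 for Aldoa, 0.04 for Gpi1, 0.04 for Tpi1, −0.0009 for Pgam1 and 0.10 for Pkm. Pfkl and Pfkp code for forms of phosphofructokinase, the main control point of the pathway, and Pfkfb3 and Pfkfb4 for the enzymes that make and remove its activator.

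Summed over the 16 enzymes, glycolytic transcripts took 1567 ± 53.7 CPM in IC libraries and 1463 ± 26.0 in vehicle libraries (SD, n = 3 each). On this scale, which divides by total counts, the lowest IC library was at 1532 and the highest vehicle library at 1492. With size factors in place of total counts the groups overlapped, the sum of vehicle replicate 2 being above that of IC replicate 2. Without Hk2 the other 15 gave 1362 ± 42.1 and 1318 ± 44.0, with ranges of 1338 to 1410 and 1274 to 1362 that overlapped.

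The glucose transporters gave no call. Slc2a1 codes for GLUT1, the transporter through which many cells take up glucose. It had 2469, 2328 and 2609 normalized counts after IC and 2722, 2222 and 2170 after vehicle, the highest of the 6 being a vehicle library. Its log2 fold change was 0.06, with an interval from −0.17 to 0.28. Slc2a3, which codes for the high-affinity transporter GLUT3, had 699, 762 and 696 after IC and 647, 520 and 702 after vehicle, with a log2 fold change of 0.21 (DESeq2 adjusted p, 0.741).

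Acid handling held the third called gene. Car12 (chromosome 9, 66713686 to 66766845, GRCm38, plus strand) codes for carbonic anhydrase 12, an enzyme on the cell surface that interconverts carbon dioxide and bicarbonate and so helps to set the pH around the cell. It had 596, 305 and 401 normalized counts after IC and 786, 1081 and 871 after vehicle. All 3 IC libraries lay below all 3 vehicle libraries, and IC replicate 1 was the nearest to them. The means were 434 ± 148 and 912 ± 152 (SD, n = 3 each), a fold of 0.475 with a 95% interval from 0.352 to 0.642. The log2 fold change was −1.07 ± 0.221 (SE). Its adjusted p was 0.000238 in DESeq2, 0.0862 in edgeR and 0.0532 in limma-voom. With DESeq2 it was called whichever library was left out, at adjusted p values up to 0.0258. Slc16a3, which codes for the lactate exporter MCT4, had a log2 fold change of 0.24 with an interval from −0.26 to 0.73.

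Pdk1 codes for a pyruvate dehydrogenase kinase, which inhibits the use of pyruvate by the mitochondrion, and is the HIF-responsive form of its family. Its log2 fold change was 0.13, with an interval from −0.26 to 0.51. Pdk4 of the same family, which is not among the 42 genes and responds to fasting and fatty acids in muscle, fell. It had 755, 644 and 547 normalized counts after IC and 1135, 1516 and 1031 after vehicle, a log2 fold change of −0.92 ± 0.175 (SE; DESeq2 adjusted p, 4.45e-05). All IC libraries lay below all vehicle libraries, and Pdk4 made up 25.0% to 33.3% of the 4 kinases per length after IC and 40.2% to 46.0% after vehicle. Sums of skeletal muscle markers overlapped between the groups, at 44.3 to 75.3 CPM after IC and 64.2 to 135 after vehicle. In each IC library most of this sum came from Tnnt3 and Pygm, with log2 fold changes of −0.15 and 0.01. The overlap of the sums therefore says little about the other markers. Of the 15 tested markers 14 were lower. The part of muscle RNA in the counts of Pdk4 was not tested.

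**Figure D3:**
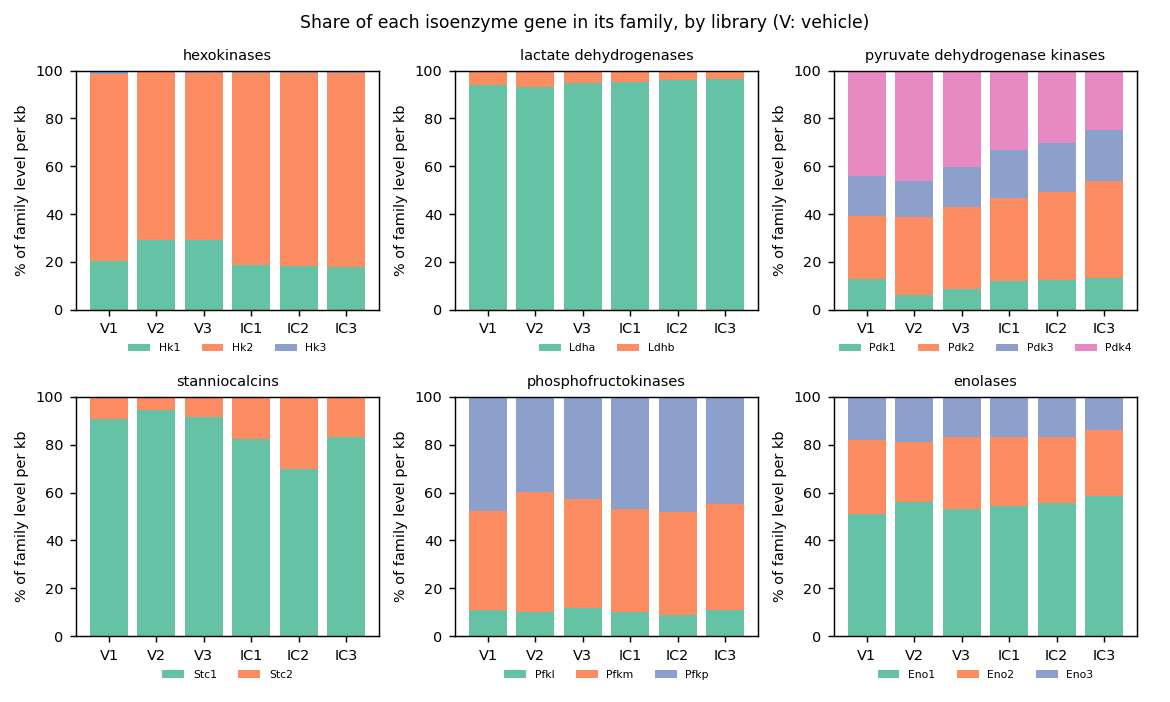
Share of each isoenzyme gene in the summed level per length of its family (y axis, percent), in the 3 vehicle libraries (V1 to V3) and the 3 IC libraries (IC1 to IC3), for 6 families. The share of Hk2 is 80.5% to 81.1% after IC and 69.8% to 78.5% after vehicle, that of Pdk4 is 25.0% to 33.3% and 40.2% to 46.0%, and the shares of the phosphofructokinases overlap between the groups.

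The genes of mitophagy, growth restraint and lipid storage included the member nearest to the threshold. Ndrg1, which restrains growth and rises with low oxygen and differentiation in many cells, had 12927, 12397 and 12634 normalized counts after IC and 11337, 10456 and 11034 after vehicle. The groups did not overlap, and the difference was small against the level. The log2 fold change was 0.21 ± 0.0723 (SE), a fold of 1.16 with an interval from 1.05 to 1.28, and the adjusted p was 0.102 by DESeq2. It passed the threshold without vehicle replicate 1 (DESeq2 adjusted p, 0.0252). Bnip3l, a receptor that marks mitochondria for removal, had 3902, 4191 and 4127 after IC and 4325, 4233 and 4304 after vehicle, with a log2 fold change of −0.07. Bnip3, its relative, had 0.03, and Ddit4, an inhibitor of mTOR signalling that stress induces, had 0.11. Hilpda, which coats lipid droplets and blocks the release of fatty acids, had 0.28 with an interval from −0.12 to 0.67, and Ankrd37, at a mean of 76.7 and 64.8 normalized counts, had 0.24 with an interval from −0.58 to 1.05.

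The collagen-modifying enzymes, through which HIF reaches the matrix that fibroblasts lay down, showed no call and 3 narrow intervals. P4ha2, a subunit of collagen prolyl hydroxylase, had 3733, 3561 and 3675 normalized counts after IC and 3108, 3662 and 3171 after vehicle. Vehicle replicate 2 lay within the IC range, and the log2 fold change was 0.14 (DESeq2 adjusted p, 0.665). P4ha1, the other such subunit, and Plod2, a lysyl hydroxylase that sets collagen cross-links, had 0.01 and −0.02. For all 3 genes the interval lay within 0.5 of 0.

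The level of the genes was compared per length, as CPM per kilobase of annotated exon. Ldha had the highest level after vehicle, 67.7, followed by Vegfa at 53.3 and Aldoa at 50.7. Hk2 stood at 24.2 after vehicle and 34.3 after IC. Stc1 and Car12 were in the lower part of the range, at 5.75 and 2.49 after vehicle and 1.58 and 1.19 after IC. The lowest were Aldoc at 0.0948 and Car9 at 0.0225 after vehicle. A level above 10 over the 6 libraries was found for 23 of the 42 genes.

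**Figure D4:**
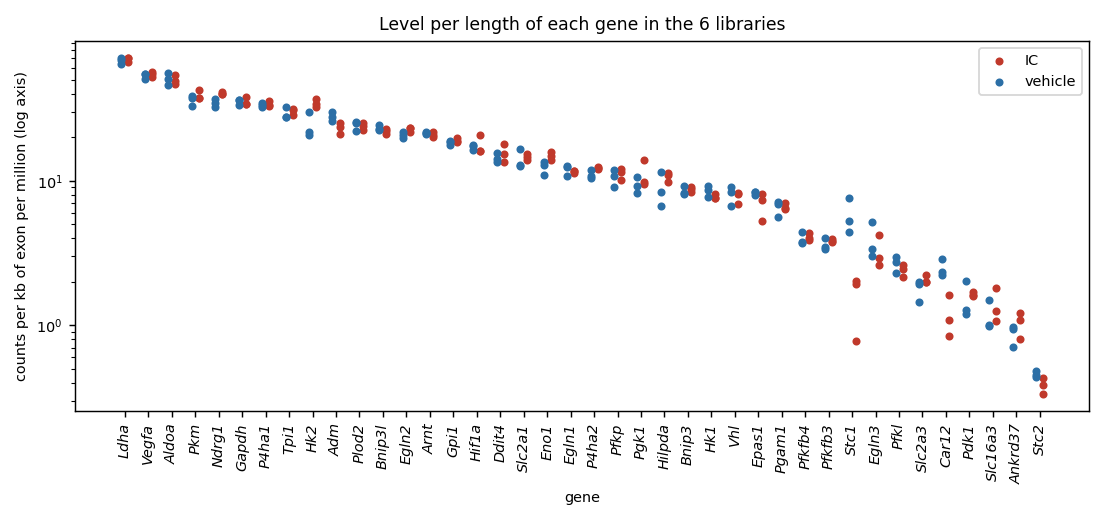
Level per length (y axis, log scale, CPM per kilobase of exon) of 40 genes in order of their mean, with 1 point per library, blue for vehicle and red for IC; Aldoc and Car9 are not drawn. The points of the groups lie on each other for most genes, and those of Stc1 and Car12 lie apart, at means of 5.75 and 2.49 after vehicle and 1.58 and 1.19 after IC. Those of Hk2 do not overlap either, at means of 24.2 after vehicle and 34.3 after IC.

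Single libraries weighed on several members. IC replicate 2 was the lowest IC library for 22 of the 41 tested genes and IC replicate 3 the highest for 20. Among vehicle libraries replicate 1 was the lowest for 19 and replicate 2 the highest for 19. The same counts were not made over all tested genes. Counts of Gapdh are uncertain because 78 other genes hold a near-identical copy of its transcript, of which the 36 in the table had counts equal to 3.88% of those of Gapdh. Pgk1 and Ldha have 4 such copies each and Eno1 has 3. Bnip3 has a near-identical stretch in 5 other genes. These may include the antisense gene Gm45507, which overlaps 504 of its exonic bases and is then not a copy. Pfkp shares 748 exonic bases with Pitrm1 on the opposite strand, and Ankrd37 shares 57 with Ufsp2, so their reads cannot be told apart where strand was not used in counting. Pkm overlaps Gm49759 on the same strand. Stc1 overlaps the antisense gene Gm41192 over 229 bases. Hk2 and Car12 had neither an overlapping exon nor a near-identical copy.

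Other genes of the same pathways were read from 3 lists that do not share a gene with the 42. Of their 96 tested genes DESeq2 called 9 (9.38%), 4 higher and 5 lower after IC, against 2.10% of all tested genes. With edgeR 1 was called, where it called 0.186% of all tested genes. The lists were chosen with earlier results of these data known, so these shares do not measure an excess. The list of other HIF-related genes held 7 of the 9. Lox, the enzyme that cross-links collagen and elastin, had the highest log2 fold change of the lists, 0.91 ± 0.111 (SE), and passed both tests (adjusted p, 8.53e-13 in DESeq2 and 0.0167 in edgeR). It had 19191, 20363 and 23075 normalized counts after IC and 9123, 12078 and 12234 after vehicle, so the lowest IC library was well above the highest vehicle library. Its relative Loxl4 rose by 0.58 on the log2 scale (DESeq2 adjusted p, 0.0104), and passed in 3 of the 6 fits with 1 library left out.

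Hmox1, which degrades haem and responds to oxidative stress as well as to low oxygen, had 3818, 3991 and 4133 normalized counts after IC and 2767, 2807 and 1986 after vehicle. The groups were well apart, and the log2 fold change was 0.66 (DESeq2 adjusted p, 4.45e-05). Ier3, an early response gene that both HIF and NF-kB regulate, rose by 0.44 on the log2 scale (DESeq2 adjusted p, 0.000342).

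Of the HIF-related genes that fell, Kdr, the main receptor for Vegfa, had 1631, 1264 and 1264 normalized counts after IC and 2424, 2001 and 2342 after vehicle, a log2 fold change of −0.70 (DESeq2 adjusted p, 3.45e-05). Kdr is also on the list of endothelial markers, of which Cdh5 (−0.74) and Cldn5 (−0.62) were called too and all 10 were lower. Cxcr4, a chemokine receptor, had −1.18 (DESeq2 adjusted p, 0.0305), and passed in 1 of those 6 fits and not with 1 surrogate variable as a term (0.599). Vldlr, a lipoprotein receptor, had −0.39 (0.0125), and passed in 2 of the 6.

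The other glycolysis and glycogen genes gave 1 call in 29 tested. Pgm5, a relative of phosphoglucomutase that sits at adhesion sites of muscle and has little enzyme activity, had −0.80 (DESeq2 adjusted p, 0.000958). Of the muscle isoenzymes in the list, named after their values were seen, Eno3 had a log2 fold change of 0.01, Pfkm of −0.11 and Pygm of 0.01, and none of these passed. Pygm was the 1 tested skeletal muscle marker of 15 that was not lower. Pgam2, the muscle form of phosphoglycerate mutase, was too low to be tested, at 6, 0 and 0 counts after IC and 38, 28 and 0 after vehicle. Pdk4 was the 1 call among the 21 tested genes of pyruvate entry, lactate and pH. The medians of the 3 lists were −0.04, −0.03 and −0.05.

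**Figure D5:**
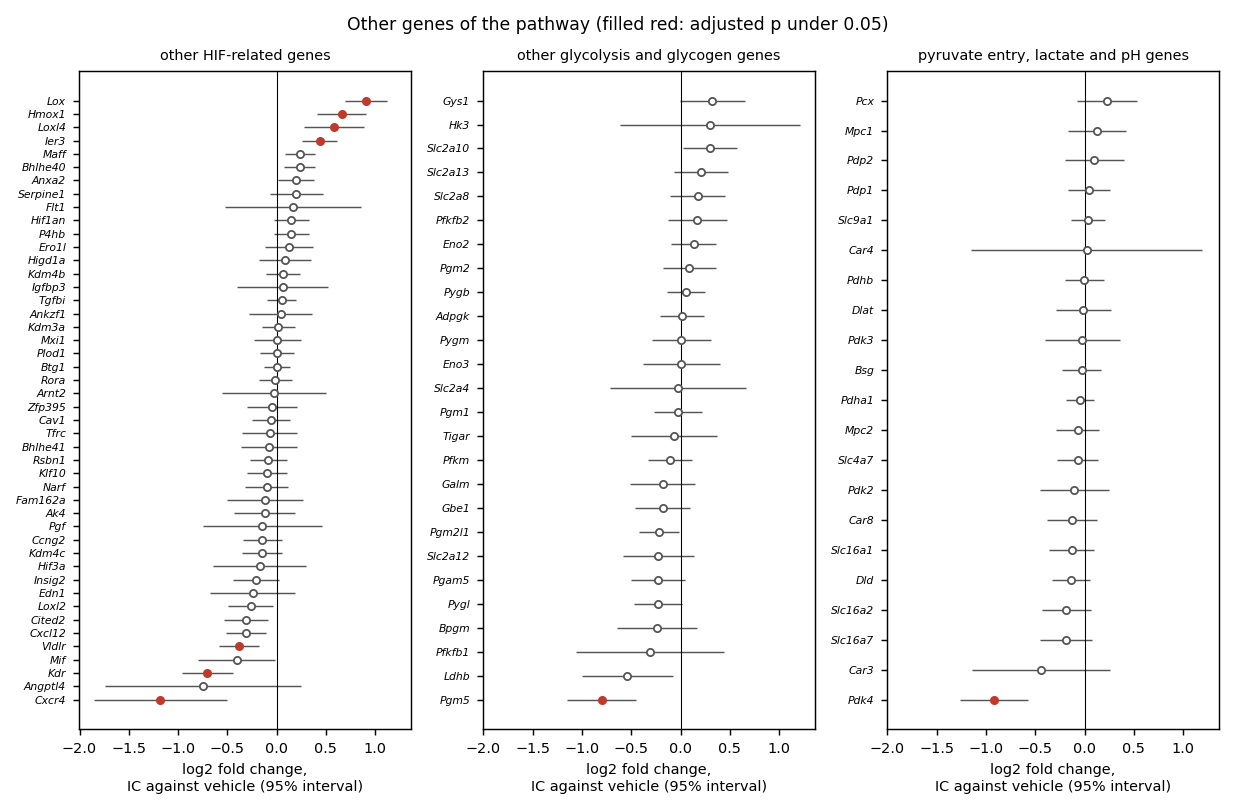
Log2 fold change of IC against vehicle (x axis) with its 95% interval for the 93 genes of the 3 other pathway lists that had an adjusted p, sorted within each list; red points have an adjusted p under 0.05 by DESeq2. Lox lies highest at 0.91, the 4 rising genes are all in the HIF-related list, and Cxcr4, Pdk4, Pgm5, Kdr and Vldlr are the 5 that fell.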

How the data were processed

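Per the labels and the study's methods, the authors sorted the cells, extracted total RNA, trimmed paired-end reads with Trim Galore, aligned them to mm10 with HISAT2 and counted reads per gene with featureCounts. The deposited values are raw counts per gene. Tool versions, annotation and strand setting are not given in the sources used here, the labels and methods name different library kits, and the methods mention removal of batch effects with sva although the labels give no batch. Groups and replicate numbers come from the labels.

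IC was compared with vehicle by the Wald test of DESeq2 1.42.0 in R 4.3.3 on 19925 genes, those reaching 10 counts in 3 or more libraries. The 4423 genes left out held 0.0429% of counts. P-values were Benjamini-Hochberg adjusted over all tested genes. A called gene has an adjusted p under 0.05, and 419 were called, 205 higher and 214 lower. Intervals are 1.96 SE. Tried as alternatives were edgeR 4.0.16 (quasi-likelihood), limma-voom 3.58.1, scaling by TMM or by total counts, dropping the count filter, requiring a mean of 100, switching off independent filtering, a replicate block, 1 surrogate variable (sva 3.50.0), each library left out, and unadjusted p. Scripts were tested on simulated data. Exon lengths and positions are from GENCODE M21 (GRCm38), matched for 23890 of 24348 symbols (98.1%). Promoters are from RefSeq.

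The members, their 8 role groups and the 3 other pathway lists were chosen with earlier results of these data known. Values per library were given for called members, for the member with the smallest unadjusted p in each role group, for Hif1a, Epas1, Vegfa, Slc2a1, Pgk1, Gapdh, Ldha and Car9, and, chosen after their values were seen, for Adm, Stc2, Bnip3l and Eno1. Called genes of the other pathway lists were named. Of the 10 marker lists, those not given with the results were as follows. Mural cell markers summed to 496 to 598 CPM after IC and 582 to 628 after vehicle, macrophage to 33.4 to 50.7 and 41.4 to 52.5, Schwann cell to 20.8 to 99.9 and 30.9 to 75.3, adipocyte to 1.61 to 3.11 and 1.76 to 3.90, and red cell to 2.23 to 2.79 and 0.873 to 2.52.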

Additional observations from a re-analysis of the deposited data

How the results depend on the processing

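The count of 3 called members became 0 with edgeR's quasi-likelihood test, 1 with limma-voom and 6 at an unadjusted p under 0.05 (3 higher and 3 lower), and ran from 1 to 4 when 1 library was left out. It was 1 (Car12) without vehicle replicate 3, 2 without vehicle replicate 2, and 4 without vehicle replicate 1, where Ndrg1 was added. The 9 called genes of the other pathway lists became 1 with edgeR, 4 with limma-voom and 19 at an unadjusted p under 0.05, and ran from 6 to 12 when 1 library was left out. Of all tested genes edgeR called 0.186%, limma-voom 0.311%, and 9.80% had an unadjusted DESeq2 p under 0.05. Shares of all tested genes are not given here for the fits without 1 library, so those counts are a description only. Whether scaled by TMM or by total counts, without the count filter, at a mean of 100 or more, or without independent filtering, DESeq2 called 3 members and 9 other pathway genes. With 1 surrogate variable, which mainly marked vehicle replicate 2, it called 2 and 8, since Stc1 (adjusted p 0.0671) and Cxcr4 (0.599) did not pass.

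Replicate numbers were not taken as pairs. The deviations from the group means of libraries with the same number had correlations of −0.0918, −0.164 and 0.0250 over 13435 genes. With the replicate block DESeq2 called 2 members, Hk2 and Car12, and 8 other pathway genes, since Stc1 (adjusted p 0.117) and Vldlr (0.0747) did not pass.

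Among log2 fold changes of single genes, 295 values kept their direction and side of the threshold, 37 lost the threshold, 1 gained it and 12 changed sign, all of genes near 0. That of Gapdh was −0.00047 with edgeR, −0.0013 with limma-voom, −0.00045 with TMM scaling, −0.0016 with a mean of at least 100 and −0.0012 with the replicate block, and ran from −0.060 to 0.041 when 1 library was left out. The same range was −0.12 to 0.095 for Hif1a, −0.0045 to 0.064 for Vegfa, −0.0016 to 0.17 for Slc2a1 and −0.034 to 0.072 for Ldha. The cause of these changes was not tested.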
